A study of Mus musculus with 6 samples.

Results

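The chemokine receptors described here are 9 G protein-coupled receptors of regulatory T cells (Treg): Ccr2, Ccr4, Ccr6, Ccr7, Ccr8, Ccr9, Cxcr3, Cxcr4 and Cxcr6. All probe sets annotated to a single gene of this list were taken, which gave 14 of 22626 probe sets and 9 of 12393 genes. Ccr2 and Ccr9 had 3 probe sets each, Cxcr6 had 2, and the other 6 receptors had 1 each. Treg suppress immune responses, and the samples were magnetically separated CD4+CD25+ cells from HDAC6 knockout mice and from wild-type C57BL6 mice, with 3 arrays per genotype. HDAC6 is a mostly cytoplasmic deacetylase, and Hdac6 lies on the X chromosome. The design text calls the samples independent, without saying whether mice were pooled, and the p-values measure only the spread between these samples. The knockout allele, the age and the sex of the mice are not given in the sources used here. A strain is named for wild type alone, so strain and genotype cannot be told apart.

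Chemokine receptors couple to inhibitory G proteins and steer migrating cells along gradients of small secreted ligands. The set of receptors on a Treg helps to decide which tissues it can enter. CCR7 brings cells into lymph nodes through CCL19 and CCL21, CXCR4 holds cells in bone marrow and lymphoid stroma through CXCL12, and CCR9 directs cells to the small intestine through CCL25. CXCR3, CCR2, CCR6 and CXCR6 serve inflamed and barrier tissues, while CCR4 and CCR8 mark skin-homing and activated Treg.

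Levels are log2 values from RMA (robust multi-array averaging), in which 1 unit is a doubling, and a difference is knockout minus wild type. Array medians ran from 6.22 to 6.27 and lower quartiles from 4.14 to 4.25. Hdac6 itself, on its single probe set, read 7.54, 7.86 and 7.64 in knockout arrays and 8.54, 8.23 and 8.42 in wild-type arrays. The difference of -0.71 (SE 0.11, adjusted p = 0.0875) did not pass the threshold of 0.05. Where that probe set lies relative to the deleted part is not given in the sources used here. Markers of the labelled cell type were present, and so were those of plasma cells and B cells. Of the 6 Treg markers, all measured, the mean level per array was 9.88 to 9.91 in the knockout and 9.75 to 9.84 in wild type. Of the 6, 5 were higher and 1, Tnfrsf18, was lower in the knockout, 0 past the threshold. Foxp3, the transcription factor that defines Treg, differed by 0.06 (SE 0.08), and Il2ra, which encodes CD25, differed by 0.01 (SE 0.12). Izumo1r differed by 0.20, without overlap, and Ikzf2 by 0.20 and Ctla4 by 0.16, both with overlap. Plasma cell markers averaged 9.71 to 10.17 in the knockout and 9.14 to 9.32 in wild type, and B cell markers 7.02 to 7.59 in the knockout and 7.45 to 7.87 in wild type. Of the CD8 T cell markers, with a mean of 6.10 to 6.22 in the knockout and 6.17 to 6.29 in wild type, Cd8b1 differed by -0.37 (adjusted p = 0.192) and Cd8a by 0.25 (adjusted p = 0.358), each without overlap. Hba-a1, the 1 erythroid marker measured of 3, lay under the lower quartile in all arrays.

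Cxcr6 fell more than 2-fold in the knockout CD4+CD25+ samples, and it was the 1 receptor of the 9 that passed the test across all probe sets. Ccr9 and Ccr2 were also lower on every probe set, Cxcr4 and Ccr8 were higher, and Ccr4, Ccr6, Ccr7 and Cxcr3 differed by 0.27 or less, none of these past the threshold. In counts, 2 of 14 receptor probe sets passed at an adjusted p under 0.05, both lower in the knockout. Over all probe sets 0.194% passed, with 0.115% lower and 0.0796% higher in the knockout. The genotypes did not overlap for 8 of 14 receptor probe sets, of which 6 were lower and 2 higher in the knockout, where 17.2% of all probe sets did not overlap, 9.48% lower and 7.68% higher. At an unadjusted p under 0.05 stood 10 of 14, against 10.6% of all probe sets. The median receptor difference was -0.38, and the median over all probe sets was 0.00. Of the 9 receptors, 5 were lower on all their probe sets and 4 were higher on all theirs. Cxcr6, Ccr9 and Ccr2 hold 8 of the 14 probe sets, all lower, which weighs on the median. Probe sets of 1 gene share their transcript, so the 14 are not independent. The receptors were also chosen with earlier results of these data known, so these shares describe the 14 and are not a test.

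**Figure D1:**
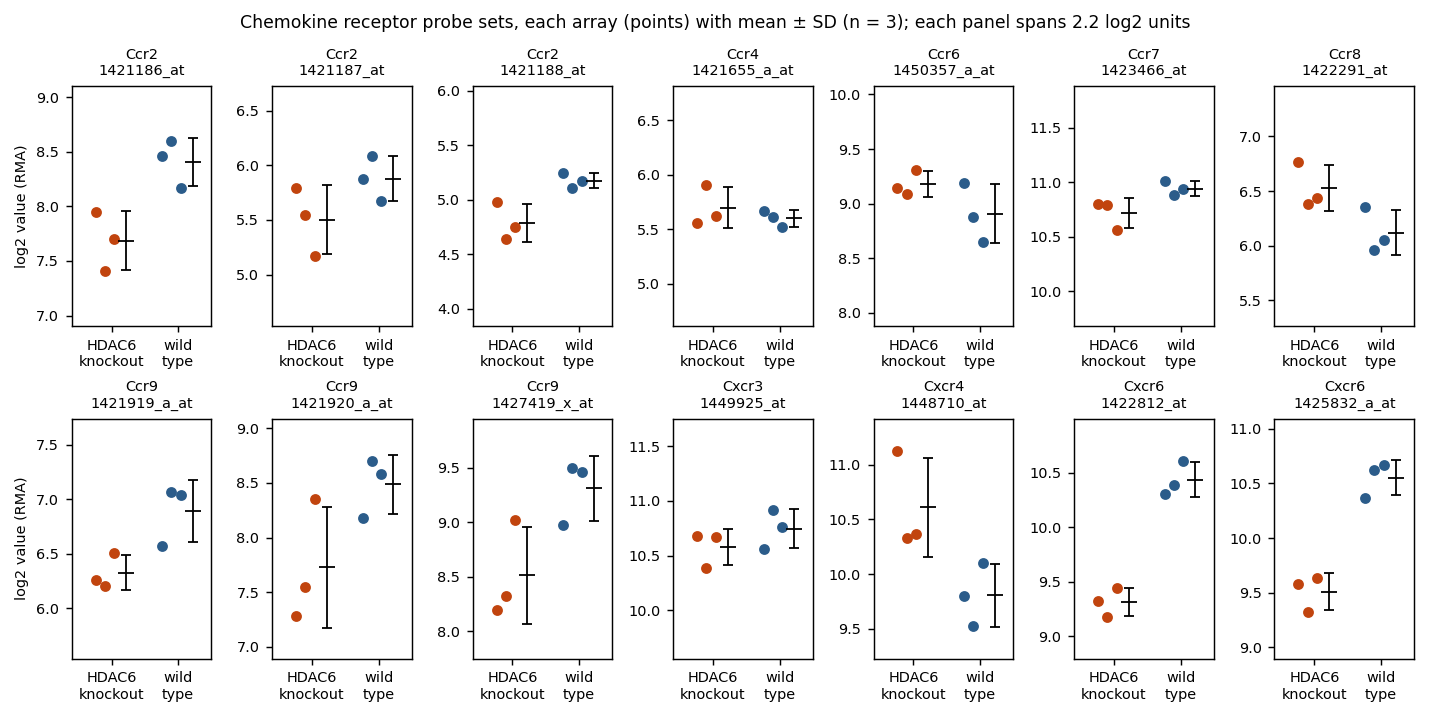
RMA log2 values of the 14 chemokine receptor probe sets in the 3 HDAC6 knockout arrays (orange, left) and the 3 wild-type arrays (blue, right), with the mean ± SD beside the points; every panel spans the same log2 range. For both Cxcr6 probe sets the knockout arrays, at 9.18 to 9.63, lie far below the wild-type arrays, at 10.30 to 10.67, while Ccr4 and Cxcr3 overlap.

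Cxcr6, the receptor for the membrane-bound and shed ligand CXCL16, marks tissue-resident and innate-like T cells as well as some Treg. Its dimmer probe set read 9.32, 9.18 and 9.44 in the knockout arrays, against 10.30, 10.39 and 10.61 in the wild-type arrays. Its brighter probe set read 9.58, 9.32 and 9.63 in the knockout arrays, against 10.37, 10.62 and 10.67 in the wild-type arrays. On both probe sets every knockout array was below every wild-type array, with 0.86 and 0.75 between the closest arrays. Cxcr6 fell by 1.12 on the dimmer probe set (SE 0.11, 95% interval -1.37 to -0.86, 2.17-fold lower, adjusted p = 0.0152). It fell by 1.05 on the brighter one (SE 0.12, 95% interval -1.32 to -0.77, 2.06-fold lower, adjusted p = 0.0260). Because these are preparations of many cells, fewer Cxcr6-expressing cells and less Cxcr6 RNA per cell cannot be told apart.

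The size of the Cxcr6 difference changed little with 1 array left out, but its call depended on which arrays were in the fit. The difference then ran from -1.18 to -1.03 on the dimmer probe set and from -1.14 to -0.95 on the brighter one. Leaving out knockout replicate 1 gave adjusted p-values of 0.0809 (dimmer) and 0.0995 (brighter), knockout replicate 2 gave 0.0891 and 0.0947, and wild-type replicate 2 gave 0.0749 and 0.133, so in these 3 cases neither passed. Calls fell over all 22626 probe sets in these 3 fits too, to 20, 5 and 11, against 44 with all 6 arrays. When knockout replicate 3 or wild-type replicate 3 was left out, only the dimmer probe set passed (0.0380 and 0.0381), the brighter one standing at 0.0749 and 0.0616. When wild-type replicate 1 was left out, both passed (0.0350 and 0.0368). An unmoderated test, which takes the spread of each probe set from its own arrays alone, called neither (adjusted p = 0.206 and 0.249). That test called 0 of all 22626 probe sets, so it says nothing particular to Cxcr6. With trend and robust settings of limma 2 of 14 receptor probe sets passed, where 0.65% of all did. At a threshold of 0.1 the count was 2 of 14, where 0.535% of all passed, and with 1 probe set per gene it was 1 of 9, where 0.161% of all genes passed. The receptor in each of these was Cxcr6.

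The innate-like lymphocyte markers were measured beside Cxcr6, since natural killer T cells and innate lymphoid cells carry this receptor. Of 10 markers of these cells 6 were measured, of which 1 was higher and 5 were lower in the knockout, 0 past the threshold. Their mean level per array was 6.91 to 7.43 in the knockout and 7.25 to 7.65 in wild type, so the genotypes overlapped, and 0 of the 6 lay under the lower quartile in all arrays. Zbtb16, which encodes the innate-like lineage factor PLZF, read 4.50, 4.71 and 5.60 in knockout arrays and 6.20, 6.64 and 6.52 in wild-type arrays on 1 probe set, without overlap. That difference was -1.51 (SE 0.28, adjusted p = 0.117). Among the alternatives run it passed only when knockout replicate 3, the highest knockout array there, was left out (-1.84, adjusted p = 0.0345). In that fit 31 of all 22626 probe sets passed. A second probe set of Zbtb16 differed by -0.40 with overlap. The first lay under the array median in 4 of 6 arrays and the second in all 6. The other 5 measured markers, Nkg7, Klrd1, Eomes, Klrk1 and Ncr1, differed by -0.18 to 0.10. The T cell markers Cd3e, Cd3g, Cd4 and Cd28, the 4 measured of 6, averaged 11.05 to 11.22 in the knockout and 11.04 to 11.16 in wild type. The part of innate-like cells in the Cxcr6 difference was not tested.

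Among all single-gene probe sets, those whose centred values over the 6 arrays lay nearest to Cxcr6 were of Prickle1, a planar cell polarity gene, of Adat2, a tRNA-editing enzyme subunit, and of Wls, which is needed to secrete Wnt proteins, for the dimmer Cxcr6 probe set. The root mean square distances were 0.130, 0.152 and 0.158, against a root mean square deviation of 0.57 for Cxcr6 itself. For the brighter Cxcr6 probe set they were of Prickle1 (0.103), of the vesicle protein gene Sypl (0.122) and of Id2 (0.134), a regulator of innate-like and effector lymphocytes. All 5 genes read lower in the knockout, which follows from how they were chosen.

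Cxcr6, Ccr9 and Ccr2 lie in a stretch of chemokine receptor genes on chromosome 9, and each was lower in the knockout on all of its probe sets. Ccr4 and Ccr8 lie on the same chromosome farther off. The 250 bases before the starts of Cxcr6, Ccr9 and Ccr2 are shown because these genes lie in that stretch and each read lower. Other genes lie between them, and only Cxcr6 passed the threshold. The same window of Cxcr4, the receptor with the largest higher reading, is shown for contrast. Cxcr4 lies on chromosome 1, Ccr7 on 11, Ccr6 on 17 and Cxcr3 on X. The sequences come from RefSeq on build GRCm38.p6, which held 8 of the 9 receptors, and are written on the strand of the gene. The places are chr9:123806227-123806476 (plus strand) for Cxcr6, chr9:123766961-123767210 (plus) for Ccr9, chr9:124101933-124102182 (plus) for Ccr2 and chr1:128592300-128592549 (minus) for Cxcr4. Capitals mark matches, on either strand, to the letters TCACAC (T-box factors), TGTGGT (RUNX factors), TTCNNNGAA (STAT factors), TGANTCA (AP-1) and TATAAA (the core promoter box of that name).
Cxcr6: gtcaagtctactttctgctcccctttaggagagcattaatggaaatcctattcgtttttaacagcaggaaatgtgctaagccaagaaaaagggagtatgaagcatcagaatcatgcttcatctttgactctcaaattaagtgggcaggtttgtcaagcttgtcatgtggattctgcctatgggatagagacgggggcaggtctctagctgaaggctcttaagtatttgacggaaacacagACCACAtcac
Ccr9: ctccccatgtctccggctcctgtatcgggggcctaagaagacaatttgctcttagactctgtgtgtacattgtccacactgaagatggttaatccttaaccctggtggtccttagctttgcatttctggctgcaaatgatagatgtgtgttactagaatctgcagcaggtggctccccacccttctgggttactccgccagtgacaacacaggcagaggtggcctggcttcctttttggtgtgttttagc
Ccr2: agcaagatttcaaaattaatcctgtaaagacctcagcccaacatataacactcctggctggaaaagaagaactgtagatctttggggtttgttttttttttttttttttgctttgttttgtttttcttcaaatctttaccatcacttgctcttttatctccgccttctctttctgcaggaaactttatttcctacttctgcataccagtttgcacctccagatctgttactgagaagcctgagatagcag
Cxcr4: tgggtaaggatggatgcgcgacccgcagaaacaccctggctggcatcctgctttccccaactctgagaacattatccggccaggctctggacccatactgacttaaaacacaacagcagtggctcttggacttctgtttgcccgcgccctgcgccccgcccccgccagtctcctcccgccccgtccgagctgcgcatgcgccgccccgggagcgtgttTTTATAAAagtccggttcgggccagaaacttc

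The Cxcr6 window held 1 match, to the RUNX letters, from 10 to 5 bases before the start. The Ccr9 and Ccr2 windows held 0 matches to the 5 motifs. The Cxcr4 window held 2 overlapping TATA matches, 32 to 25 bases before the start, and was 61.2% G and C, against 43.6% for Cxcr6, 50.4% for Ccr9 and 37.2% for Ccr2. Of 32851 windows of this length, 14% held the RUNX letters, 12.4% the TATA letters, 12.3% the T-box letters, 7.02% the STAT letters and 6.75% the AP-1 letters. Among the receptors not shown, the Cxcr3 window held the T-box letters and the RUNX letters, the Ccr4 window the AP-1 letters, 1 of the 2 Ccr6 windows the STAT letters at 2 places, and the Ccr8 window 0 matches. These are matches of letters and describe the windows only.

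Ccr9, the gut-homing receptor for CCL25, was lower by 0.56 to 0.80 on its 3 probe sets, and none passed. The brightest read 8.20, 8.32 and 9.02 in knockout arrays and 8.97, 9.50 and 9.46 in wild-type arrays. Knockout replicate 3 overlapped wild-type replicate 1 there, and the difference was -0.80 (SE 0.24, adjusted p = 0.308). The middle one read 7.28, 7.55 and 8.35 in knockout arrays and 8.18, 8.70 and 8.58 in wild-type arrays, with the same pair overlapping and a difference of -0.76 (SE 0.27, adjusted p = 0.388). The dimmest read 6.26, 6.21 and 6.51 in knockout arrays and 6.57, 7.07 and 7.04 in wild-type arrays. Here the genotypes stood 0.05 apart without overlap, and the difference was -0.56 (SE 0.15, adjusted p = 0.257). The spread within the knockout (highest minus lowest array) was 1.06 on the middle and 0.82 on the brightest probe set, where the median over all probe sets was 0.21, and in both cases replicate 3 was the highest. Without that array the differences were -1.07 and -1.05, still short of the threshold (adjusted p = 0.170 and 0.173).

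Ccr9 is also carried by plasmacytoid dendritic cells and by IgA plasma cells. The other 3 measured plasmacytoid markers were all higher in the knockout by 0.20 or less: Bst2 differed by 0.20, Ly6d by 0.13 and Tcf4 by 0.08, none past the threshold. Of 8 plasma cell markers 7 were measured and all 7 were higher. The IgA heavy chain gene Igha read 14.27, 14.27 and 14.36 in knockout arrays and 12.18, 12.58 and 12.70 in wild-type arrays. It rose by 1.81 (adjusted p = 0.00799), and since array maxima were 14.4 to 14.51, this difference may be understated. The other 6 did not pass. Of 8 B cell markers 7 were measured, with 3 higher and 4 lower. Ms4a1, which encodes CD20, differed by -1.13, Spib by -0.94, Blk by -0.63 and Cd79b by -0.32, while Pax5 differed by 0.17, Cd79a by 0.14 and Cd22 by 0.12, none past the threshold. The parts of plasma cells and B cells in the receptor differences were not tested.

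Ccr2, the receptor for CCL2 that draws cells into inflamed tissue, was lower on all 3 probe sets. The brightest read 7.95, 7.41 and 7.70 in knockout arrays and 8.46, 8.60 and 8.17 in wild-type arrays, a difference of -0.72 (SE 0.16, 95% interval -1.11 to -0.34, adjusted p = 0.177). The dimmest read 4.98, 4.64 and 4.75 in knockout arrays and 5.25, 5.11 and 5.17 in wild-type arrays, a difference of -0.39 (SE 0.10, adjusted p = 0.239). On these 2 probe sets the genotypes did not overlap, with 0.22 and 0.13 between the closest arrays. The third read 5.79, 5.55 and 5.17 in knockout arrays and 5.88, 6.09 and 5.67 in wild-type arrays, with overlap, and differed by -0.38 (SE 0.17, adjusted p = 0.508). Its difference was -0.21 with knockout replicate 3 left out. This probe set and the dimmest lay under the array median in all 6 arrays. Myeloid cells carry Ccr2 too. Of 10 myeloid and dendritic cell markers 9 were measured, with 3 higher and 6 lower, mean levels of 5.53 to 5.83 in the knockout and 5.67 to 5.93 in wild type, and 0 past the threshold. Xcr1 and Itgam lay under the lower quartile in all 6 arrays. The part of myeloid cells in the Ccr2 difference was not tested.

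**Figure D2:**
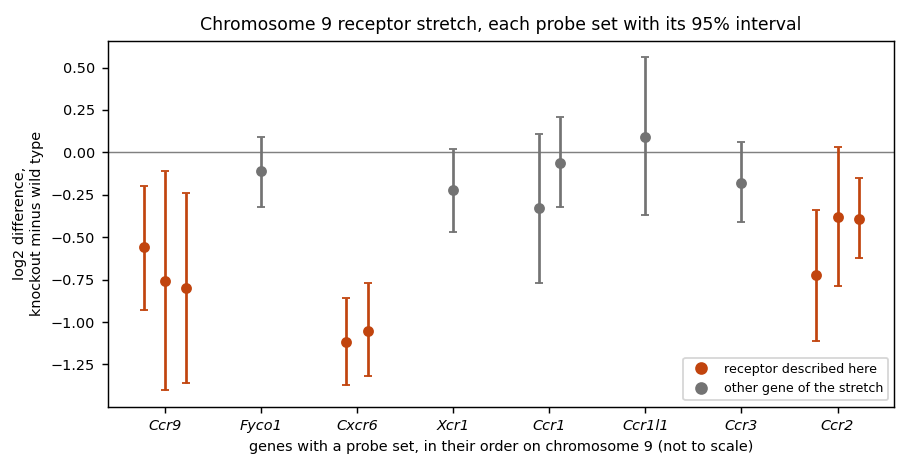
Log2 difference, knockout minus wild type, of each probe set of the genes from Ccr9 to Ccr2 in their order on chromosome 9, with its 95% interval from limma; distances are not to scale. All 8 probe sets of Ccr9, Cxcr6 and Ccr2 (orange) lie below 0, and the intervals of the other genes (grey) all include 0.

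Between Ccr9 and Ccr2 on chromosome 9 lie 5 other genes with 6 probe sets, Fyco1, Xcr1, Ccr1, Ccr1l1 and Ccr3. Of these 5 probe sets were lower and 1 higher, from -0.33 for Ccr1 to 0.09 for Ccr1l1, and 0 passed. Of the 6, 4 lay under the lower quartile in all arrays, so a difference there could be understated. Fyco1, an autophagosome transport gene that sits between Ccr9 and Cxcr6 and was well expressed (8.14 in the knockout and 8.26 in wild type), differed by -0.11 (SE 0.09). Of the genes within 5 places of any of the 9 receptors, 23 of 78 were measured, on 38 probe sets. On these 20 were higher and 18 lower, with a median of 0.07, and 0 passed. The smallest p-values were those of the chromatin remodelling gene Smarce1 beside Ccr7 (-0.32, adjusted p = 0.228, with a second probe set at 0.17), of the ciliary trafficking gene Lztfl1 beside Ccr9 (-0.28 and -0.31, adjusted p = 0.312 and 0.541) and of the lysosomal galactosidase gene Glb1 beside Ccr4 (0.33, adjusted p = 0.324). For genes within 5 places of Cxcr6 other than receptors described here, all 6 probe sets, of 4 genes, were lower, by 0.06 to 0.33. Over all probe sets 11400 of 22626 were lower. The Fyco1, Xcr1 and Ccr1 probe sets also count in the stretch above. Of these, Xcr1 and the dimmer Ccr1 probe set lay under the lower quartile in all arrays.

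Cxcr4, the receptor for CXCL12, had the largest higher reading of the 9. It read 11.13, 10.33 and 10.37 in knockout arrays and 9.80, 9.52 and 10.10 in wild-type arrays. The genotypes did not overlap and stood 0.23 apart, and knockout replicate 1 was 0.80 above the lowest knockout array. The difference was 0.80 (SE 0.24, 95% interval 0.24 to 1.37, 1.74-fold higher), and it did not pass (adjusted p = 0.310). It was 0.54 with knockout replicate 1 left out. Plasma cells carry Cxcr4, and the plasma cell markers given above were higher in the knockout too. Their part in the Cxcr4 difference was not tested.

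Ccr7, the lymph node homing receptor, differed little. It read 10.80, 10.79 and 10.56 in knockout arrays and 11.01, 10.88 and 10.94 in wild-type arrays, a difference of -0.23 (SE 0.09, adjusted p = 0.421). The genotypes were 0.08 apart without overlap. Its 95% interval, -0.44 to -0.02, did not reach a change of 1.5-fold. Without knockout replicate 3 the difference was -0.15.

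Cxcr3, the receptor for CXCL9 and CXCL10 on T-bet-expressing Treg, read 10.68, 10.39 and 10.67 in knockout arrays and 10.56, 10.92 and 10.76 in wild-type arrays. The genotypes overlapped, and the difference was -0.17 (SE 0.12, 95% interval -0.45 to 0.12, adjusted p = 0.674). It was -0.07 with knockout replicate 2 left out and -0.08 with wild-type replicate 2 left out. Ccr6, the receptor for CCL20 on mucosal and Th17-type cells, read 9.14, 9.09 and 9.31 in knockout arrays and 9.19, 8.88 and 8.65 in wild-type arrays. Only wild-type replicate 1 reached the knockout range, and the difference was 0.27 (SE 0.14, 95% interval -0.06 to 0.61, adjusted p = 0.565). Leaving out wild-type replicate 1 gave 0.41, and leaving out wild-type replicate 3 gave 0.14.

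Ccr8, a receptor of activated and tissue Treg whose ligand is CCL1, read 6.77, 6.38 and 6.44 in knockout arrays and 6.35, 5.96 and 6.05 in wild-type arrays. The lowest knockout array stood 0.03 above the highest wild-type array. The difference was 0.41 (SE 0.14, 95% interval 0.08 to 0.74, adjusted p = 0.363). Ccr4, the receptor for CCL17 and CCL22, read 5.56, 5.91 and 5.62 in knockout arrays and 5.67, 5.61 and 5.52 in wild-type arrays. These overlapped, the difference was 0.10 (SE 0.10, 95% interval -0.15 to 0.34, adjusted p = 0.799), and it was -0.01 without knockout replicate 2. The Ccr4 probe set read below the array median in all 6 arrays, where RMA compresses differences. The Treg markers averaged 0.10 higher in the knockout, and their part in these 2 differences was not tested.

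**Figure D3:**
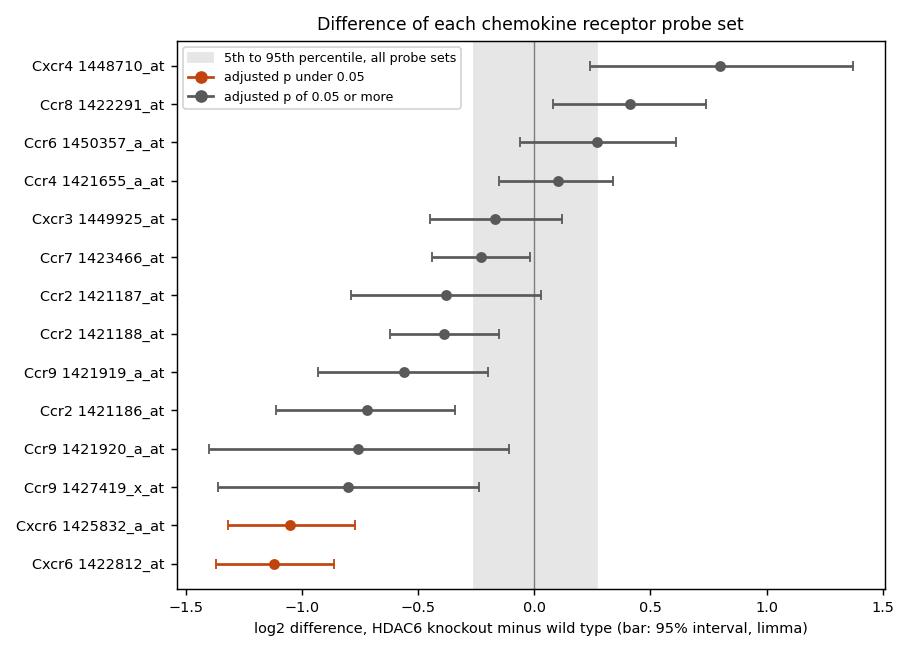
Log2 difference, knockout minus wild type, of the 14 receptor probe sets in order of size (points), with 95% intervals from limma (bars); the grey band holds the middle of all probe sets, from -0.26 at the 5th to 0.27 at the 95th percentile. Only the 2 Cxcr6 probe sets (orange) passed at an adjusted p under 0.05; the intervals of Ccr9, Ccr7, Cxcr4 and Ccr8 and of 2 Ccr2 probe sets exclude 0 before adjustment.

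Of 15 other chemokine receptors 13 were measured, on 16 probe sets, of which 5 were higher and 11 lower and 0 passed, with a median of -0.06. Cxcr5, which guides follicular cells through CXCL13, came closest, with 8.54, 8.52 and 8.58 in knockout arrays and 7.86, 7.60 and 8.03 in wild-type arrays. It was 0.72 higher (SE 0.11, adjusted p = 0.0849), and of the 17 alternatives run it passed under 2, the trend and robust settings (adjusted p = 0.0239) and the looser threshold of 0.1. The decoy-like receptor Ccrl2 differed by 0.55 (adjusted p = 0.349) and the neutrophil receptor Cxcr2 by 0.28 (adjusted p = 0.402). Cxcr2 averaged 4.56 in the knockout and 4.27 in wild type, near the lower quartile of the arrays.

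Of 28 chemokine ligand genes 27 were measured, on 35 probe sets, of which 24 were higher and 11 lower and 0 passed, with a median of 0.06. The 3 genes of smallest p were Cxcl16, Ccl25 and Cxcl13. Cxcl16, the ligand of CXCR6, averaged 5.08 in the knockout and 4.39 in wild type on 1 probe set (0.69, adjusted p = 0.117) and 6.69 in the knockout and 6.49 in wild type on the other (0.20, adjusted p = 0.376), without overlap on either. Ccl25, the ligand of CCR9, averaged 5.45 in the knockout and 4.85 in wild type, a difference of 0.60 (adjusted p = 0.183) without overlap. Cxcl13, the ligand of CXCR5, differed by 0.41 and 0.24 on its 2 probe sets (adjusted p = 0.286 and 0.731), and the second was 0.02 with wild-type replicate 1 left out and 0.43 with wild-type replicate 3 left out. All of these but the brighter Cxcl16 probe set lay under the array median in all 6 arrays.

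Of 38 genes of receptor signalling and desensitisation 35 were measured, on 67 probe sets, of which 30 were higher and 37 lower and 0 passed, with a median of -0.02. Pik3cg, the PI3-kinase gamma that acts directly below these receptors, read 7.86, 7.86 and 8.17 in knockout arrays and 8.44, 8.70 and 8.76 in wild-type arrays on 1 probe set. That probe set differed by -0.67 (adjusted p = 0.113), while a dimmer one differed by 0.08. Rgs16, which shortens G protein signals, was higher by 0.59, 0.35 and 0.34 on its 3 probe sets (adjusted p = 0.147, 0.319 and 0.374). Coro1a, an actin regulator of T cell traffic, differed by 0.26 on its dimmest probe set and by -0.05 and -0.01 on the brighter ones.

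Of 28 transcription factors tied to these receptors in T cells 26 were measured, on 49 probe sets, of which 20 were higher and 29 lower, 2 fell and 0 rose, with a median of -0.05. Over all probe sets 0.115% passed with a lower and 0.0796% with a higher knockout level. Both transcription factor probe sets that fell were of Id2. Its middle probe set read 10.26, 10.27 and 10.42 in knockout arrays and 10.99, 11.23 and 11.22 in wild-type arrays, and it fell by 0.83 (SE 0.09, adjusted p = 0.0260). Its dimmest probe set averaged 6.94 ± 0.06 in knockout arrays and 7.58 ± 0.08 in wild-type arrays (SD, n = 3 each), and it fell by 0.64 (SE 0.07, adjusted p = 0.0304). On the remaining one, at 10.70 in the knockout and 11.48 in wild type, the difference was -0.78 and missed the threshold (adjusted p = 0.101). With 1 array left out the middle probe set had adjusted p-values of 0.0345 to 0.145 and passed only when wild-type replicate 1 was the one left out, and the dimmest had 0.0563 to 0.142 and passed in 0 of 6 cases. Over all probe sets 5 to 51 passed in these 6 fits, against 44 with all arrays. The unmoderated test, which called 0 of all 22626 probe sets, called neither (adjusted p = 0.212 and 0.205). With 1 probe set per gene Id2 was represented by its brightest, which did not pass (adjusted p = 0.0977). Tbx21, which encodes T-bet, a factor known to induce Cxcr3 in T cells, read 8.36, 8.31 and 8.65 in knockout arrays and 8.63, 8.86 and 9.15 in wild-type arrays, a difference of -0.44 (adjusted p = 0.364) with overlap. Tbx21 and Zbtb16 were named after their values were seen.

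Of 14 homing partners 11 were measured, on 19 probe sets, of which 8 were higher and 11 lower and 0 passed, with a median of -0.01. S1pr1, the receptor for exit from lymphoid organs, differed by -0.63 (adjusted p = 0.170). Itgae, the CD103 integrin chain that anchors cells to epithelium, differed by 0.31 (adjusted p = 0.223). Itga4, the chain that pairs with beta 7 in gut homing, differed by 0.35 on its brightest probe set (adjusted p = 0.262) and by 0.09 and -0.01 on the others. Of the 217 distinct probe sets of these lists and the neighbours, 2 passed, where 0.194% of all probe sets did. The genotypes did not overlap for 38.8% of the transcription factor probe sets and for 13.2% to 25.4% in the other lists, where 17.2% of all did not. The lists too were chosen with earlier results known, so these shares are descriptions.

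**Figure D4:**
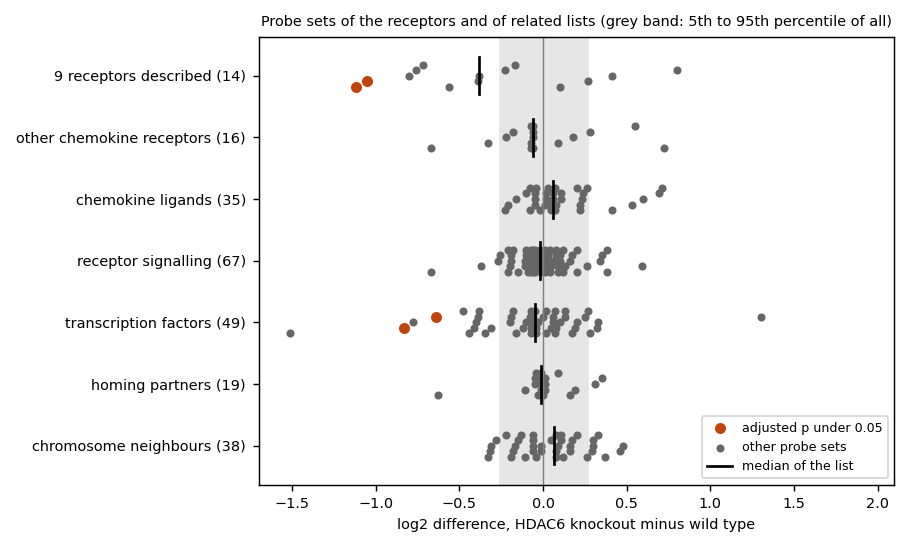
Log2 difference, knockout minus wild type, of every probe set of the 9 receptors and of 6 related gene lists (points, with vertical jitter; number of probe sets in brackets); black bars mark list medians and the grey band the 5th to 95th percentile of all probe sets. The receptor median lies at -0.38 and those of the 6 lists between -0.06 and 0.07. Cxcr6, Ccr9 and Ccr2 hold 8 of the 14 receptor probe sets, and 5 of the 9 receptors were lower and 4 higher. Orange points passed the threshold and belong to Cxcr6 and Id2.

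**Figure D5:**
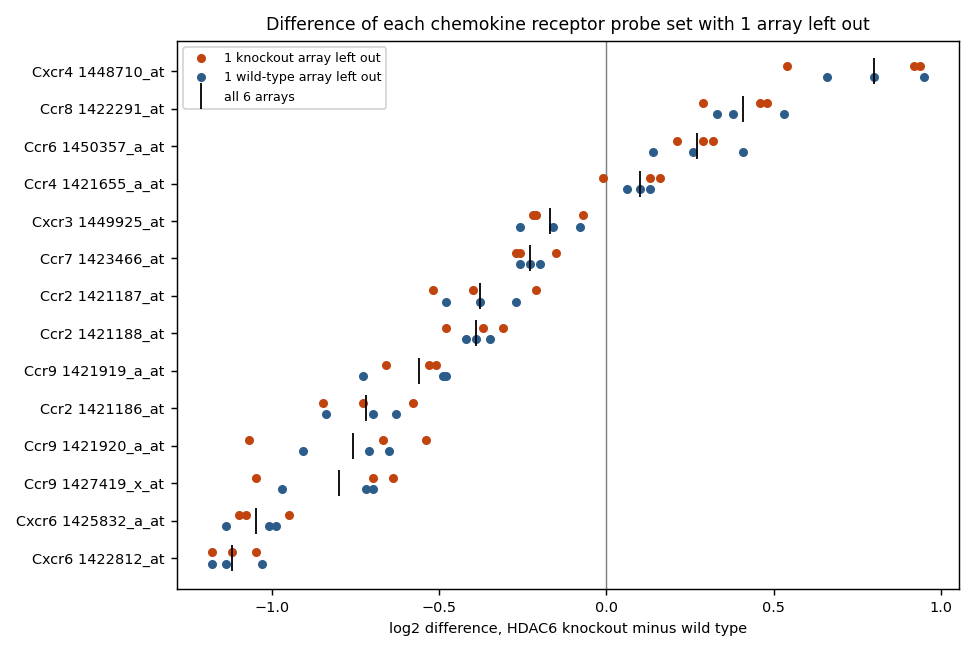
Log2 difference, knockout minus wild type, of each receptor probe set with 1 array left out at a time (orange, a knockout array; blue, a wild-type array) and with all 6 arrays (black bar). The Cxcr6 points stay between -1.18 and -0.95, and a single value, Ccr4 without knockout replicate 2, crosses 0, at -0.01.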

How the data were processed

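Total RNA of 6 samples was amplified, labelled with biotin and hybridised to 1-colour oligonucleotide arrays, per the labels' protocols. The authors deposited 1 table of log2 values made with RMA, per the submitters' processing notes, with no version given. The log2 scale was taken from the range of values. The 64 control probe sets were left out, which left 22626. Names came from the platform annotation, updated through gene IDs (20351 found in RefSeq, GRCm38.p6). Of the probe sets 20380 named 1 gene, 691 several and 1555 none.

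The genotype difference was fitted by limma (version 3.58.1, under R 4.3.3) with lmFit and eBayes and no covariate, and p-values were adjusted by Benjamini-Hochberg over all probe sets, two-sided. The fit was tested on simulated data. Arrays carry no read depth. Their number limits the precision, and the median SE was 0.10. Marker levels are means of each marker's brightest probe set.

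The receptors, gene lists and motifs were chosen with earlier results of these data known. Named were every receptor probe set, list genes past the threshold (or the 3 of smallest p), Hdac6, the cell markers and the 3 genes nearest in pattern to each receptor probe set that passed. Alternatives were a replicate block, other normalizations, variance models, weights, filters, thresholds and leaving out arrays. Deviations of same-numbered samples correlated at 0.220, -0.094 and 0.103, so the numbers were not taken as pairs. Plots were made by matplotlib 3.10.9 (Python 3.11.15).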

Additional observations from a re-analysis of the deposited data

How the results depend on the processing

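Over all probe sets 44 passed with all 6 arrays, against 27 with a replicate block, 147 with trend and robust settings, 86 with array weights, 121 at a threshold of 0.1, 20 with 1 probe set per gene and 0 in the unmoderated test (2239 at an unadjusted p under 0.05). Leaving out 1 array gave 5 to 51. Of the receptor probe sets 2 passed, against 1 with the replicate block (the brighter Cxcr6 probe set had an adjusted p of 0.0873), 1 with 1 probe set per gene, and 0 in the unmoderated test (5 at an unadjusted p under 0.05). Leaving out 1 array gave 0 to 2, with 8 to 10 of 14 at an unadjusted p under 0.05, where 1876 to 2644 of all 22626 were. In each alternative with a call the receptor called was Cxcr6. Filters on dim probe sets kept 13 (upper 60%) and 11 (mean of at least 6) of the 14. Of the probe sets of the related lists 2 passed, against 0 with the replicate block (48 of 217 at an unadjusted p under 0.05, where 2711 of all 22626 were), 7 with trend and robust settings, 0 with 1 probe set per gene (26 of 130, where 1382 of all 12393 were) and 0 in the unmoderated test (31 of 217, where 2239 of all were). Leaving out 1 array gave 0 to 1.

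Of the single receptor values 217 kept their direction and side of the threshold, 11 lost a call, all of Cxcr6, and 1 changed sign, Ccr4 at -0.01 without knockout replicate 2. Only the 2 Cxcr6 probe sets had a call to lose, with 16 alternatives for the dimmer and 17 for the brighter. The looser threshold and the 1.5-fold minimum used the same fit, so no direction could change there. With 1 array left out Ccr4 ran from -0.01 to 0.16, the dimmer Pik3cg probe set from -0.03 (knockout replicate 3 left out) to 0.14, and 2 Itga4 probe sets from -0.14 to 0.28 and from -0.11 to 0.10, with signs changed at -0.14 (knockout replicate 2 left out) and -0.03 (wild-type replicate 3) on the first and at 0.02, 0.06 and 0.10 (knockout replicate 2, knockout replicate 3, wild-type replicate 1) on the second. Causes were not tested. No detection calls, slides or scan dates were used here.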
